A study of Mus musculus with 6 samples.

Results

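Maternal hepatocytes in mid-gestation (stage G14.5, named for the day of gestation) were compared with those at day 0 of gestation (stage G0) across all genes, by the RNA of their nuclei. The mice were female, wild-type and of the strain C57BL/6J. The members are the 4 libraries whose labels give these stages, of 6 in the series: 1 library of nuclei from liver tissue and 1 from a perfused liver at each stage. They hold 961 of the 1567 nuclei, 252 and 184 at G0 and 224 and 301 at G14.5. Wherever a pair of values is given, the liver tissue library comes first and the perfusion library second. Mice were mated at approximately 8 weeks of age, no treatment is given, and all groups share strain, sex and genotype. The labels name no animal, so whether a library pools animals is not known and p-values measure only the spread between these libraries, which may be technical. The libraries of day 7 of lactation (P7L) entered the statistical fit only, to help estimate that spread. Each nucleus was sequenced by Smart-seq3xpress, a plate-based method that reads along the whole transcript.

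Pregnancy exposes the maternal liver to placental lactogens and prolactin, which act on the prolactin receptor, and to a changed supply of growth hormone, sex steroids and glucocorticoids. The prolactin and growth hormone receptors pass their signal through the kinase JAK2 to STAT5 transcription factors. The receptor of leukemia inhibitory factor pairs with gp130 and signals mainly through STAT3. The liver enlarges in pregnant rodents and supplies most plasma proteins, lipoproteins and hormone carriers. RNA in a nucleus is largely precursor RNA with introns, so a read count here follows recent transcription more closely than the cytoplasmic level does.

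Total reads per library ran from 226030591 to 379767336, with a median of 740249 to 1191576 reads per nucleus. Shares of nuclei with a read were taken after thinning every nucleus to 250000 reads, which left out 15 and 3 nuclei at G0 and 0 and 1 at G14.5. At this depth a nucleus had reads of a median of 5642 and 5380 genes at G0 and 6003 and 6037 genes at G14.5. The 10 hepatocyte markers made up 1.42% to 1.63% of the reads of each library. They passed 1% of reads in 89.5% and 79.6% of nuclei at G0 and in 92.4% and 93.7% at G14.5. For none of 10 other cell types did the markers pass 1% of reads in any nucleus. Of the hepatocyte markers, 9 were tested and transferrin (Trf) was not. In the test given below, Alb, Tat and Asgr1 were called higher at G14.5 and Cps1, Cyp2e1 and Ttr lower. Markers of endothelial cells, which hepatocytes should lack, had reads in a median of 17.3% and 20.4% of nuclei at G0 and 17.9% and 16.3% at G14.5, and the most widely found of them, Ptprb and Stab2, in 52.0% to 64.1% and in 50.0% to 55.4%. Markers of other cell types were also widely found. The cholangiocyte marker Pkhd1 had reads in 92.3% to 97.0% of nuclei of each library. For Reln, a marker of stellate cells and fibroblasts, it was 44.7% to 58.5%. A share, even a high one, is therefore not read as expression on its own, and the results rest on differences between the stages. The extract protocol in the labels describes picking whole hepatocytes, whereas the titles and library names give nuclei. In bulk sums of this kind, fewer nuclei with reads and fewer reads per nucleus give the same change, so the shares are given below as well. A lower level in every nucleus also lowers the share with a read, so the shares alone cannot separate these cases.

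Of 15015 genes tested, 1793 (11.9%) were called between the stages at a Benjamini-Hochberg adjusted p under 0.05 in edgeR's quasi-likelihood test. At G14.5, 1040 genes (6.93%) were higher and 753 (5.01%) were lower. These shares over all genes tested are the ones to set beside the counts of called list members below. All 1793 moved the same way in both preparations, which a fit with preparation as block all but requires of a call. Among the higher genes, 781 rose over 2-fold, 432 over 4-fold and 128 over 16-fold, and among the lower genes 493, 183 and 31 fell by as much. Without the G14.5 tissue library 662 genes were called, and without the G14.5 perfusion library 815. The split between directions moved with scaling: with library size alone in place of TMM factors, 891 calls went up and 1101 went down. On the authors' length-scaled values 557 went up and 571 down with a pseudocount of 1, or 837 and 890 with 0.1. No call changed its direction under any of the 17 alternatives run.

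**Figure D1:**
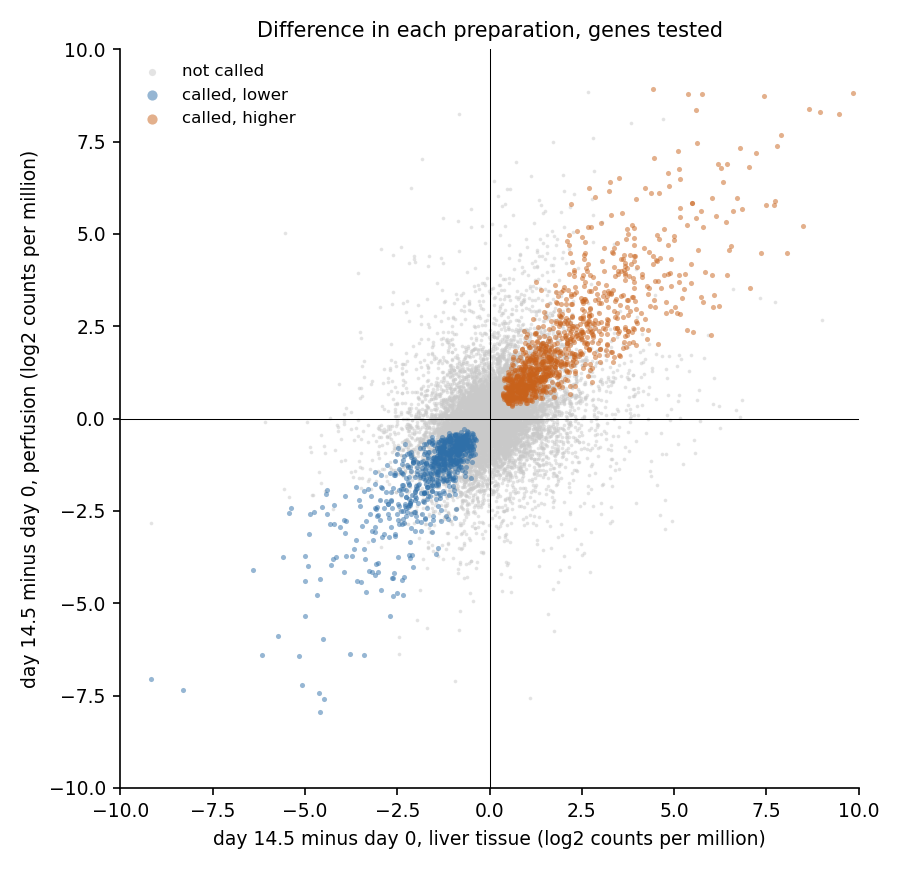
Each point is 1 of 15007 genes tested, with its difference between G14.5 and G0 in log2 CPM in the liver tissue libraries (x axis) and the perfusion libraries (y axis). The 8 genes beyond 10 on an axis are not drawn. All called genes, orange for higher and blue for lower, lie in the quadrants where both preparations move the same way.

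The higher genes took 11.9% and 11.99% of all reads at G0 and 28.0% and 27.8% at G14.5. The lower genes took 20.6% and 20.2% at G0 and 9.77% and 10.5% at G14.5. These genes were chosen by their calls between the same libraries, so the direction of both shares is fixed by that choice. At G0 the gene with the most reads, not corrected for length, was Malat1, a nuclear long noncoding RNA, and at G14.5 it was Ghr.

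Each change was split into a part from the share of nuclei with reads and a part from the reads per nucleus that has any. On the log2 scale the parts add up. The split is a description, since the share itself depends on the level. It is missing for 43 higher and 14 lower genes, which had no read in the thinned nuclei of any 1 or more of the 4 libraries. Among the higher genes the median rise in the share of nuclei was 14.6 percentage points. The median part of the change carried by the share was 44.3%. Among the lower genes the median fall in the share was 7.17 points and the median part was 19.5%. Each median was taken separately over genes. The share moved by over 25 points in 263 higher and 81 lower genes and by over 50 points in 48 and 9. It moved by under 5 points in 255 higher and 296 lower genes. Genes with reads in at least 90% of the nuclei of all 4 libraries numbered 179 among the higher and 168 among the lower.

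**Figure D2:**
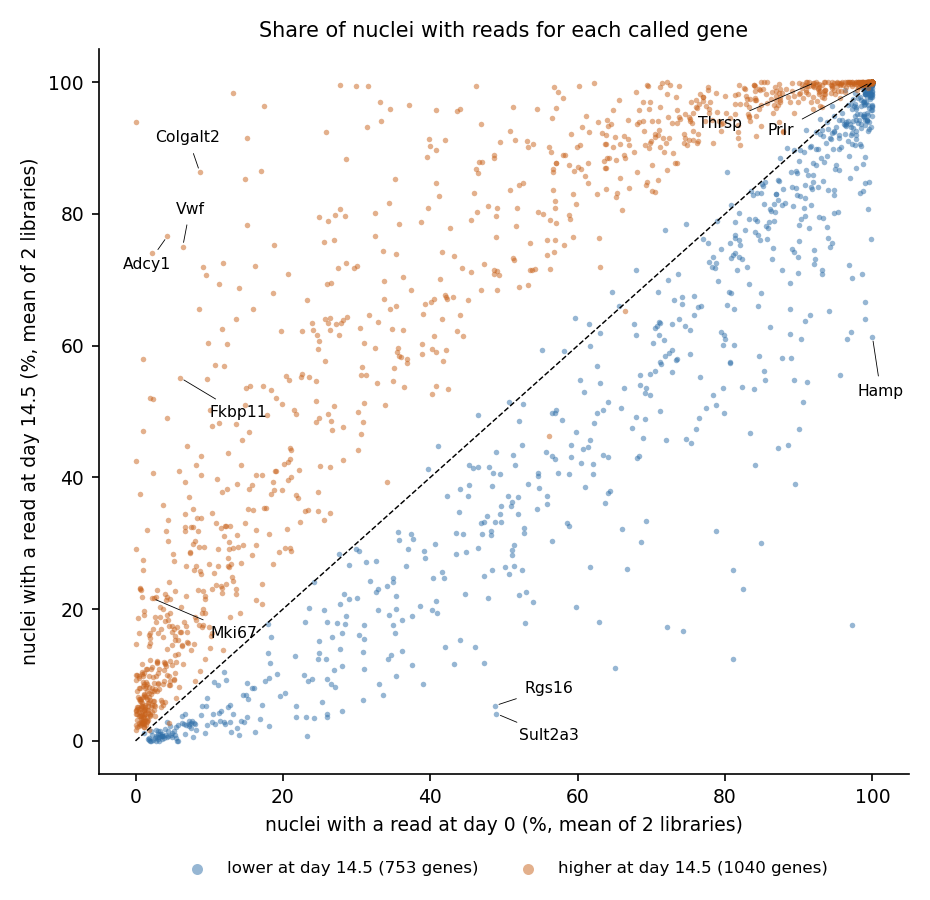
Share of thinned nuclei with at least 1 read at G0 (x axis, percent, mean of both libraries) and at G14.5 (y axis) for the 1040 higher (orange) and 753 lower (blue) genes. Genes above the dashed line of equal shares were found in more nuclei at G14.5. Vwf, Colgalt2 and Adcy1 stand at the upper left, and Sult2a3 and Rgs16 at the lower middle.

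The split differed with the share of nuclei at G0. That share is 1 side of the comparison, and genes found in few G0 nuclei can pass the filters through G14.5 or P7L. Which direction is called more often in a class is therefore partly set by the choice of classes. Among the 4690 genes with reads in under 10% of G0 nuclei, 296 (6.31%) were called higher and 67 (1.43%) lower. For these higher genes the median part of the change carried by the share was 56.7%. Among the 5565 genes at 10% to 50%, the higher genes gained a median of 26.0 points. For the 1638 genes in at least 90% of G0 nuclei, 191 (11.7%) were called higher and 257 (15.7%) lower. The median part of the change carried by the share was 2.98% and 3.74%. In that class a share has no room to rise.

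**Figure D3:**
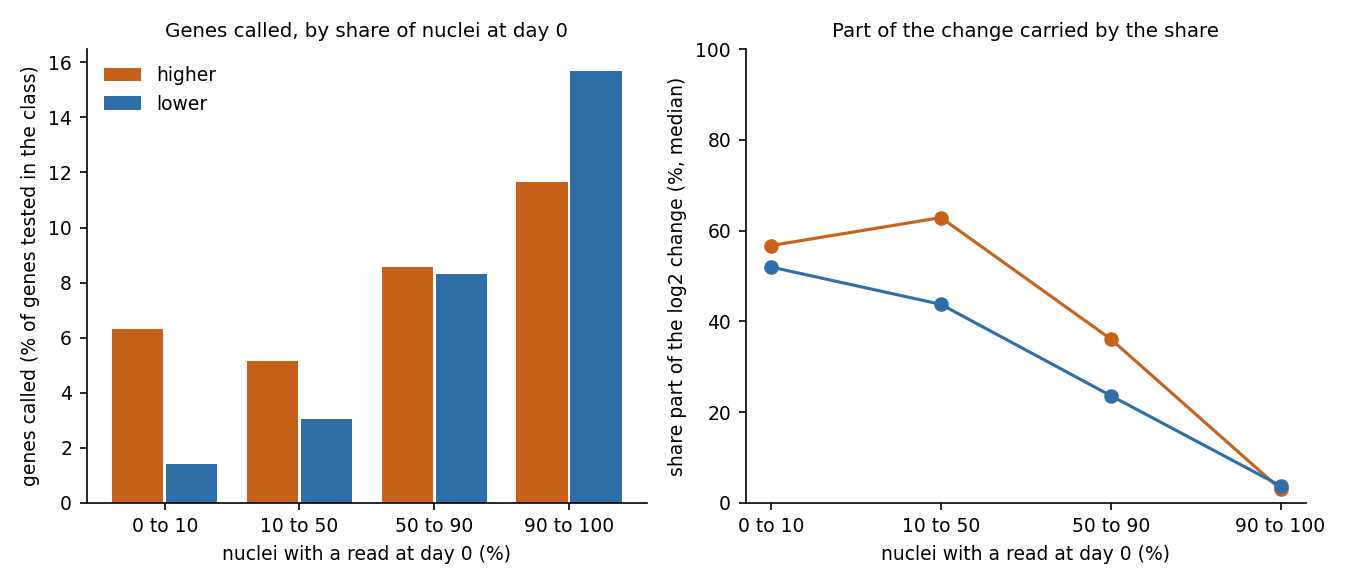
Left, percent of the genes tested that were called higher (orange) or lower (blue) in 4 classes of the share of G0 nuclei with a read. Right, median part of the log2 change carried by the share of nuclei, over 50% in the lowest class and under 4% in the highest. For higher genes it was largest, 62.9%, in the class from 10% to 50%.

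A gene was counted as gained if it was called higher, had reads in under 10% of nuclei in both G0 libraries and in at least 50% in both G14.5 libraries; 9 genes met this and 8 are described. With the stages exchanged, 0 genes met it. A nucleus at G0 had reads of a median of 0 of the 9 genes, in both libraries, and a nucleus at G14.5 of 7, in both. At least 3 of the 9 were found in 1 of 237 and 1 of 181 nuclei at G0, and in 222 of 224 and 298 of 300 nuclei at G14.5. These values describe genes that the rule chose for their shares in the same nuclei and support nothing further. With the limit at G0 raised to 20%, 33 genes were gained and 5 were lost.

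Levels are given in CPM, read counts scaled to the size of each library. Colgalt2 (chromosome 1, 152399830 to 152510695, plus strand, GRCm38), which encodes a galactosyltransferase that modifies collagen, had reads in 9.71% and 7.74% of nuclei at G0 and in 85.7% and 87% at G14.5. Its level went from 1.34 and 0.807 to 99.1 and 97.6 CPM (a log2 fold change of 6.54, SE 0.34, adjusted p = 0.000135). Vwf (chromosome 6, 125546774 to 125686679, plus strand), which encodes von Willebrand factor, the carrier of clotting factor VIII known as a product of endothelium and megakaryocytes, had reads in 6.75% and 6.08% of nuclei at G0 and in 72.8% and 77.3% at G14.5. The exact 95% intervals of these shares, which cover counting error only, were 3.91 to 10.7, 3.07 to 10.6, 66.4 to 78.5 and 72.2 to 82%. Its level was 0.225 and 0.366 CPM at G0 against 115 and 117 CPM at G14.5 (a log2 fold change of 8.64, SE 0.33, adjusted p = 4.52e-05). None of the 14 endothelial markers tested was called in edgeR, and the 15 endothelial markers together made up 0.00325% and 0.00543% of reads at G0 and 0.00287% and 0.00209% at G14.5. The perfusion total at G0 leans on Kdr, with 4378 reads there and 304 at G14.5. Of 5 platelet and megakaryocyte markers 1 was tested, Itga2b, which was called lower (adjusted p = 0.0465) and lost its call when any of the 6 libraries was left out. Of the others, Pf4 had 354 and 48 reads at G0 and 643 and 89 at G14.5, Ppbp had 30 and 2 and then 60 and 0, Gp1ba had 43 and 126 and then 24 and 129, and Gp9 had none in the 4 libraries. The part of endothelial or platelet RNA in the rise of Vwf was not tested.

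Adcy1 (chromosome 11, 7063489 to 7178506, plus strand), a calmodulin-activated adenylyl cyclase best known from neurons, went from 4.22% and 4.42% to 77.2% and 76% of nuclei and from 1.51 and 0.545 to 52.9 and 59.2 CPM (a log2 fold change of 5.84, SE 0.55, adjusted p = 0.00154). Sult4a1 (chromosome 15, 84076097 to 84105754, minus strand), a sulfotransferase-like protein of brain, went from 0.844% and 1.1% to 57.1% and 58.7% of nuclei (a log2 fold change of 10.02, SE 0.51, adjusted p = 0.000132). Pnpla5 (chromosome 15, 84112356 to 84123175, minus strand), a lipase of the patatin-like family, went from 1.69% and 2.76% to 73.2% and 75% of nuclei (a log2 fold change of 5.68, SE 1.06, adjusted p = 0.0173). It lies beside Sult4a1, and together with Pnpla3 these are 3 consecutive coding genes on chromosome 15 that all rose. Pdgfa (chromosome 5, 138976014 to 138997370, minus strand), which encodes a platelet-derived growth factor chain, went from 9.28% and 9.95% to 74.1% and 67.3% of nuclei (a log2 fold change of 3.25, SE 0.45, adjusted p = 0.00608). Fam222a (chromosome 5, 114568016 to 114613220, plus strand) went from 8.86% and 8.29% to 65.2% and 66% of nuclei (a log2 fold change of 2.32, SE 0.35, adjusted p = 0.00845), and its adjusted p was 0.0502 without the G14.5 tissue library. Fkbp11 (chromosome 15, 98724366 to 98728198, minus strand), a prolyl isomerase of the endoplasmic reticulum, went from 7.17% and 4.97% to 53.6% and 56.7% of nuclei (a log2 fold change of 3.68, SE 0.75, adjusted p = 0.023), and its adjusted p was 0.0729 and 0.0778 without the G14.5 tissue or perfusion library. The separation of the stages in these genes is what the rule asked for.

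Other genes with large rises missed that rule at G0 or at G14.5. Dnah11, a heavy chain of the dynein motor of motile cilia, had 3.75 and 3.42 CPM at G0 against 411 and 552 CPM at G14.5 and went from 12.7% and 13.8% to 97.8% and 99% of nuclei (a log2 fold change of 7.03, SE 0.32, adjusted p = 9.18e-05). Sorcs3, a sorting receptor known from neurons, had 0.763 and 1.19 CPM at G0 against 184 and 242 CPM at G14.5 and went from 14.3% and 16% to 91.5% and 91.7% of nuclei (a log2 fold change of 7.79, SE 0.25, adjusted p = 2.63e-05). Nedd9, a scaffold protein of cell adhesion, went from 29.5% and 30.4% to 99.5% and 99.3% of nuclei and from 4.51 and 9.91 to 474 and 623 CPM (a log2 fold change of 6.33, SE 0.25, adjusted p = 4.52e-05). Crybb3, a lens crystallin, had reads in 3.38% and 0.552% of nuclei at G0 and in 47.8% and 56.3% at G14.5 (a log2 fold change of 6.33, SE 0.72, adjusted p = 0.00301). Efhb and Stk33, both known from ciliated cells, had log2 fold changes of 6.68 and 6.60 (adjusted p = 0.000423 and 0.00111). Their lists showed few other calls. Of 27 axonemal and ciliary genes tested, 4 were called higher and 0 lower, with a median log2 fold change of −0.11 beside −0.01 over all genes tested. Of 22 neuronal adhesion and sorting genes, Sorcs3, Adcy1 and Sorcs2 were higher, Nxph1 and Grid1 were lower (Grid1 with adjusted p = 0.058 without the G14.5 tissue library), and the median was −0.66.

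The genes that gained the most CPM were receptors of hormones and cytokines. Ghr (chromosome 15, 3317760 to 3583492, minus strand), the growth hormone receptor, had 6636 and 6470 CPM at G0 against 27770 and 29180 CPM at G14.5 (a log2 fold change of 2.12, SE 0.10, adjusted p = 9.53e-05). Lifr (chromosome 15, 7090614 to 7197489, plus strand), the receptor of leukemia inhibitory factor, had 651 and 755 CPM at G0 against 14970 and 14410 CPM at G14.5 (a log2 fold change of 4.39, SE 0.14, adjusted p = 2.63e-05). Prlr (chromosome 15, 10177238 to 10349180, plus strand), the prolactin receptor, had 1887 and 1445 CPM at G0 against 10940 and 13120 CPM at G14.5 (a log2 fold change of 2.86, SE 0.16, adjusted p = 0.000176). For each of the 3 both G14.5 libraries were above both G0 libraries and close to each other. Together they took 0.920% and 0.879% of all reads at G0 and 5.09% and 5.15% at G14.5. On the authors' length-scaled values Ghr ranked 12 and 12 among all genes at G0 and 2 and 3 at G14.5, Lifr went from ranks 973 and 768 to 13 and 17, and Prlr from 299 and 370 to 24 and 18. As background, mice also make circulating soluble forms of the growth hormone and leukemia inhibitory factor receptors from the same genes, and counts per gene do not tell these forms apart.

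All 3 receptors had reads in at least 99.6% of nuclei in all 4 libraries, so their rise lay in the reads per nucleus. The median nucleus, at 250000 reads, had 102 and 121 reads at G0 and 3325 and 3076 reads at G14.5 for Lifr. For Prlr it had 293 and 285 reads at G0 and 2270 and 2802 reads at G14.5. For Ghr it had 1505 and 1547 reads at G0 and 5948 and 6496 reads at G14.5. The G0 tissue library was uneven: nuclei listed later mostly had more Prlr reads than nuclei listed earlier. Other genes differed along the list too. Many later nuclei had very few reads of Cyp2e1, and low values of Hamp were rarer among them than among earlier ones. The G0 tissue medians of these genes, here and below, span both parts, and what sets the parts apart was not tested. Of the G14.5 nuclei, 99.5% and 100% lay above the 90th percentile of the G0 nuclei of the same preparation for Lifr, 93.8% and 99.3% for Prlr and 91.1% and 95% for Ghr. The rise was therefore found in nearly every nucleus and not in a subset.

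**Figure D4:**
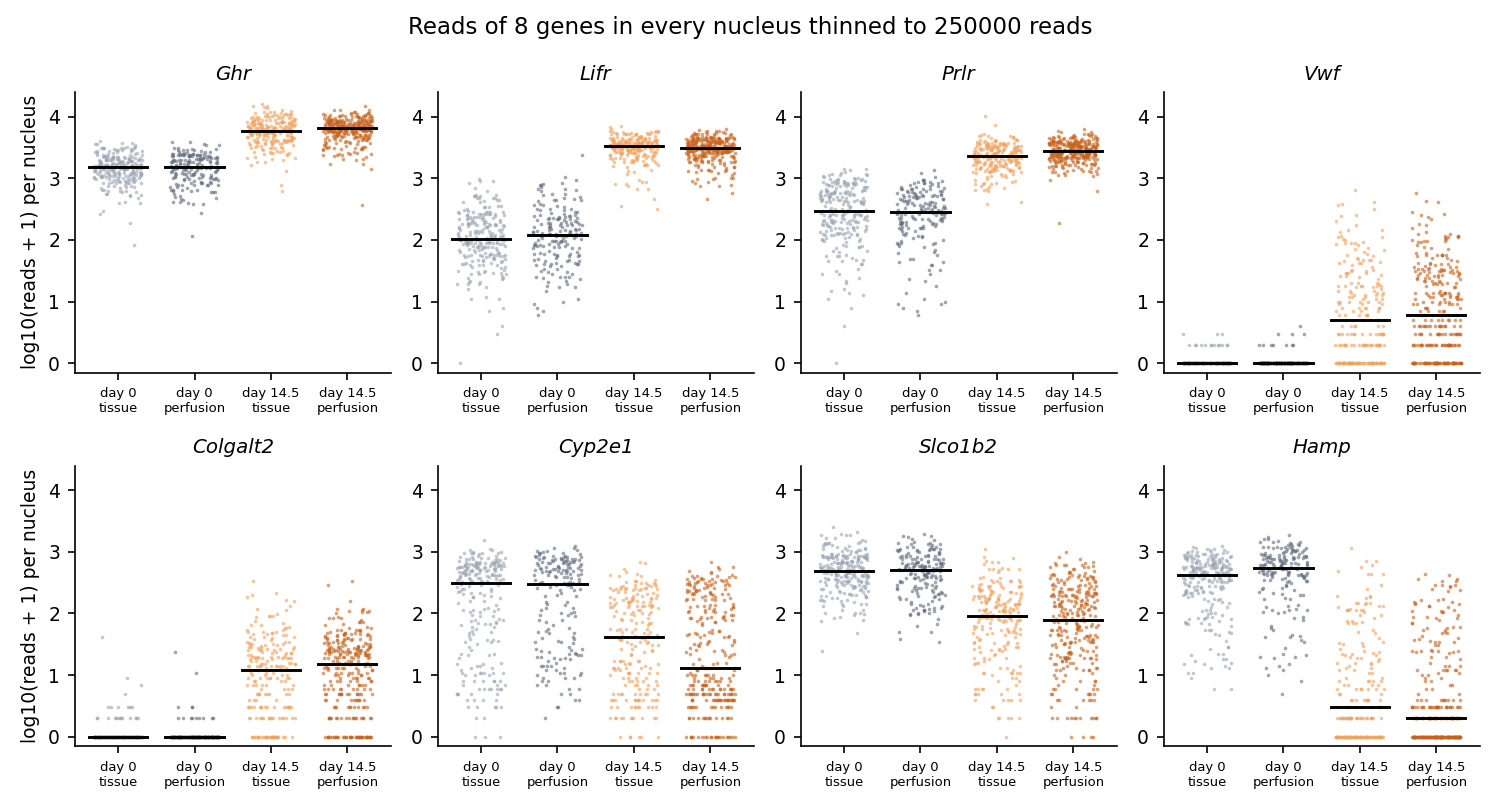
Reads per nucleus of 8 genes on a log10(reads + 1) scale (y axis) in the 4 libraries (x axis); each point is a nucleus thinned to 250000 reads and each black line the median. Ghr, Lifr and Prlr move up as a whole, Vwf and Colgalt2 go from a median of 0 to wide ranges, and Slco1b2 moves down. Hamp and Cyp2e1 keep nuclei at high values at G14.5 beside many at low ones. For Cyp2e1 the G0 tissue library already held many nuclei at low values beside others at high ones.

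Of 22 growth factor and cytokine receptors tested, 7 were called higher and 3 lower (5 and 1 on leaving out either G14.5 library), and the median log2 fold change was −0.09. Egfr, the epidermal growth factor receptor, rose from 1758 and 1690 to 2808 and 4210 CPM (a log2 fold change of 1.00, SE 0.16, adjusted p = 0.0104). Fgfr2, a fibroblast growth factor receptor, rose from 188 and 187 to 360.1 and 409 CPM (a log2 fold change of 1.03, SE 0.13, adjusted p = 0.00424). Il6ra and Erbb4 were called with log2 fold changes of 0.64 and 0.47, and both calls were lost without the G14.5 tissue library (adjusted p = 0.0789 and 0.274) or the G14.5 perfusion library (adjusted p = 0.105 and 0.0849). Lepr, the leptin receptor, fell from 91.5 and 99.9 to 34.8 and 19.3 CPM and from 72.2% and 71.8% to 49.5% and 41.7% of nuclei (a log2 fold change of −1.85, SE 0.30, adjusted p = 0.0113). Fgfr4 and Acvr2b, also called lower, had log2 fold changes of −1.18 and −1.05, and without the G14.5 tissue library adjusted p values of 0.101 and 0.157. Downstream, 1 of 15 genes of JAK-STAT transduction and feedback was called: Socs2, a feedback inhibitor of growth hormone signalling, had 98.9 and 158 CPM at G0 against 352 and 301 CPM at G14.5 (a log2 fold change of 1.34, SE 0.26, adjusted p = 0.0204), with adjusted p = 0.118 and 0.0594 without the G14.5 tissue or perfusion library. Jak2, Stat5a, Stat5b, Cish and Il6st, which encodes gp130, had log2 fold changes of 0.26, 0.65, −0.25, 0.45 and 0.32 and were not called. The JAK-STAT list's count of higher genes is near the share over all genes tested, 6.93%.

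Genes of secreted plasma proteins were among the highest in reads. Serpina6 (chromosome 12, 103646630 to 103657212, minus strand), which encodes corticosteroid-binding globulin, the plasma carrier of glucocorticoids, had 121 and 118 CPM at G0 against 3834 and 3625 CPM at G14.5 (a log2 fold change of 4.96, SE 0.13, adjusted p = 1.76e-05). On the authors' length-scaled values it went from ranks 875 and 866 to 10 and 11. Its share of nuclei went from 85.7% and 84% to 100% and 100% of nuclei, and the median nucleus had 16 and 11 reads at G0 and 888 and 834 reads at G14.5. Cp, which encodes the copper carrier ceruloplasmin, rose from 627 and 746 to 3425 and 3647 CPM (a log2 fold change of 2.37, SE 0.12, adjusted p = 0.000132), with reads in all nuclei of all 4 libraries. Alb, albumin, rose from 3496 and 3544 to 9480 and 7307 CPM (a log2 fold change of 1.25, SE 0.13, adjusted p = 0.00246). Lipc, hepatic lipase, which trims lipoproteins, rose from 562 and 514 to 2628 and 2912 CPM (a log2 fold change of 2.37, SE 0.12, adjusted p = 0.000132).

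Of 24 coagulation genes tested, 8 were called higher and 1 lower (5 and 0 on leaving out either G14.5 library), with a median log2 fold change of 0.38. Besides Vwf, Serpinc1, which encodes antithrombin, rose from 822 and 865 to 2753 and 2333 CPM (a log2 fold change of 1.59, SE 0.12, adjusted p = 0.000518). F10 rose from 205 and 224 to 549.5 and 505 CPM (adjusted p = 0.00179) and F7 from 191 and 194 to 418 and 464 CPM (adjusted p = 0.00209). F7 and F10 encode clotting factors and are neighbours on chromosome 8. Kng1, kininogen, rose from 623 and 662 to 1044 and 1119 CPM (adjusted p = 0.00622). The 3 fibrinogen genes Fga, Fgb and Fgg, which form 1 cluster on chromosome 3, had log2 fold changes of 0.79, 0.63 and 0.67. Their calls were lost without the G14.5 tissue library, with adjusted p values of 0.0945, 0.0998 and 0.173, and without the G14.5 perfusion library, with 0.0518, 0.0523 and 0.0812; that of Fgg was also lost without the G0 perfusion library (adjusted p = 0.0783). Proc, protein C, an anticoagulant, had 482 and 450 CPM at G0 against 295 and 291 CPM at G14.5 (a log2 fold change of −0.67, SE 0.11, adjusted p = 0.0125), with adjusted p values of 0.0992 and 0.0636 without the G14.5 tissue or perfusion library.

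Complement genes were mixed: of 21 tested, 2 were higher and 5 lower (0 and 2 without the G14.5 tissue library, 1 and 3 without the G14.5 perfusion library), with a median of 0.03. Over all genes tested 6.93% were higher and 5.01% lower, so the count of higher complement genes is near that share. C9, the pore-forming terminal component, fell from 102 and 72.2 to 8.3 and 7.34 CPM and from 81.9% and 66.8% to 17.4% and 16% of nuclei (a log2 fold change of −3.47, SE 0.24, adjusted p = 0.000423). C1s1, a protease of the first component, fell from 175 and 181 to 54.5 and 64.8 CPM (a log2 fold change of −1.58, SE 0.16, adjusted p = 0.00198). C3, the central component, had 506 and 497 CPM at G0 against 259 and 297 CPM at G14.5 (a log2 fold change of −0.85, SE 0.14, adjusted p = 0.0104), and its adjusted p was 0.0865 without the G14.5 tissue library. Of 26 hepatokines and secreted growth factors, 6 were higher and 2 lower (1 and 0 without the G14.5 tissue library, 1 and 1 without the G14.5 perfusion library), with a median of 0.40. Igfbp1, which binds insulin-like growth factors, rose from 35.8 and 91.7 to 231 and 334 CPM and from 63.3% and 51.4% to 97.3% and 99.7% of nuclei (a log2 fold change of 2.27, SE 0.22, adjusted p = 0.00172). Igf1, the growth factor made by the liver under growth hormone, had 1952 and 1654 CPM at G0 against 808 and 1098 CPM at G14.5 (a log2 fold change of −0.92, SE 0.17, adjusted p = 0.0165), with adjusted p = 0.0808 without the G14.5 tissue library. So at G14.5 Ghr was higher and Igf1 lower in both preparations.

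Genes of protein folding and export in the endoplasmic reticulum, where called, were all higher. Of 25 tested, 14 were called higher and 0 lower (7 higher without the G14.5 tissue library, 9 without the G14.5 perfusion library), with a median log2 fold change of 0.81. Creld2, a secreted chaperone-like protein, had 6.33 and 9.33 CPM at G0 against 45.5 and 51.3 CPM at G14.5 and reads in 19.8% and 17.7% of nuclei at G0 and in 73.2% and 77.3% at G14.5 (a log2 fold change of 2.65, SE 0.28, adjusted p = 0.00219). Manf, a secreted factor of the stressed reticulum, rose from 8.46 and 6.93 to 46.2 and 40.6 CPM and from 30% and 24.3% to 83.9% and 75.7% of nuclei (a log2 fold change of 2.50, SE 0.27, adjusted p = 0.00257). Sec61a1, the channel of the translocon, rose from 33 and 28.7 to 104 and 94.8 CPM (adjusted p = 0.00275), Kdelr2, which retrieves chaperones, from 83.1 and 57.6 to 197 and 174 CPM (adjusted p = 0.00317) and Pdia3, a disulfide isomerase, from 66.5 and 82 to 198 and 195 CPM (adjusted p = 0.00359). Hspa5, which encodes the chaperone BiP, had 46.7 and 55.7 CPM at G0 against 139 and 103 CPM at G14.5 (a log2 fold change of 1.23, SE 0.22, adjusted p = 0.0147). Pdia6, a disulfide isomerase, had 19 and 26.3 CPM at G0 against 78.7 and 72.8 CPM at G14.5 (a log2 fold change of 1.78, SE 0.26, adjusted p = 0.00782). Calr, calreticulin, had 38.6 and 25.5 CPM at G0 against 82.5 and 77.3 CPM at G14.5 (a log2 fold change of 1.35, SE 0.22, adjusted p = 0.0111). Hspa5 and Pdia6 had adjusted p values of 0.121 and 0.065 without the G14.5 tissue library, and Calr 0.0799 without the G14.5 perfusion library. The calls of 5 of the 14 held when each of the 6 libraries was left out in turn: Creld2, Manf, Sec61a1, Kdelr2 and Pdia3.

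Some promoters of this list hold a known element of such genes. The endoplasmic reticulum stress element, bound by the transcription factors NF-Y and ATF6, was searched as CCAAT, any 9 bases and CCACG on both strands in the 250 bases before each RefSeq start (GRCm38.p6). It was found in 8 of the 22 promoters of the list's genes (36.4%), in 17 of 13640 promoters of all genes tested (0.125%) and in 37 of 32851 promoters of all genes (0.113%). Among called genes it was found in 6 of 959 promoters of higher genes (0.626%) and in 0 of 730 promoters of lower genes; 5 of those 6 belong to this list. The 8 genes of the list were Hspa5, Creld2, Pdia6, Calr, Canx, Dnajc3, Hsp90b1 and Syvn1. The first 5 were called higher, Canx with a log2 fold change of 0.52 and an adjusted p of up to 0.192 when a library was left out. Dnajc3, Hsp90b1 and Syvn1 had log2 fold changes of 0.19, 0.40 and 0.63 and were not called. The promoters of 4 called genes follow, 5′ to 3′ on the gene's strand, with the element in capitals, to show where it lies before each start:

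Hspa5, chr2:34771840-34772089, plus strand: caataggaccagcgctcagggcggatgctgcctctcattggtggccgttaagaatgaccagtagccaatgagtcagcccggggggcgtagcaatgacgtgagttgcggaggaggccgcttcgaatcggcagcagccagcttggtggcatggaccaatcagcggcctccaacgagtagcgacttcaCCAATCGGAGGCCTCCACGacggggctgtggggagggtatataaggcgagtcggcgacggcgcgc

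Creld2, chr15:88819396-88819645, plus strand: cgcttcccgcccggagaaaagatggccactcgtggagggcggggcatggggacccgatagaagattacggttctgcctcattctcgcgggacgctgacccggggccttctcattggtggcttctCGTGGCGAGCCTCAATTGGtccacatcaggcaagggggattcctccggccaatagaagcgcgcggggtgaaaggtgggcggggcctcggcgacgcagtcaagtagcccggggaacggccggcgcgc

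Pdia6, chr12:17266339-17266588, plus strand: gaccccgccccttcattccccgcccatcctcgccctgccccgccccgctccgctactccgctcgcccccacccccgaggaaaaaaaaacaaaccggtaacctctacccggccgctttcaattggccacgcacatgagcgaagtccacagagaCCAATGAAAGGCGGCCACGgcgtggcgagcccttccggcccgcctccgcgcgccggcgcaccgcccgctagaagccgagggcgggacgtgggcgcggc

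Calr, chr8:84846932-84847181, minus strand: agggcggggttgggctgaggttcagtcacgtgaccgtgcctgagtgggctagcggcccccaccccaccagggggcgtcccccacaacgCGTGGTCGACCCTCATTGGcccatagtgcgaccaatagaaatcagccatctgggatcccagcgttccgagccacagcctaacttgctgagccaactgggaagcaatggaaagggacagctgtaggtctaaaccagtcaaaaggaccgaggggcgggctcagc

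In Hspa5 and Pdia6 the element reads forward and ends 47 and 80 bases before the start. In Creld2 and Calr it reads in reverse and ends 108 and 144 bases before the start. A match of letters is not a test of binding. A STAT5 motif, TTCNNNGAA, was found in 7.09% of promoters of higher genes, 5.62% of lower genes and 6.11% of all genes tested. The other motifs searched were TCACNCCAC, a sterol element, found in 1 of 20 promoters of the cholesterol list and 0.990% of all genes tested, and, for the clock list, the D-box TTATGTAA and the E-box CACGTG, found in 0 and 5 of 20 promoters and in 0.513% and 7.79% of all genes tested.

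Several groups of lipid genes had more members called higher than lower. Of 20 genes of polyunsaturated fatty acids and phospholipid remodelling tested, 11 were called higher and 2 lower, with a median log2 fold change of 1.07. Fads2 and Fads1, the delta-6 and delta-5 desaturases that set the pace of long-chain polyunsaturated fatty acid synthesis, rose from 174 and 154 to 719 and 964 CPM (a log2 fold change of 2.36, SE 0.18, adjusted p = 0.000619) and from 68.4 and 49 to 191 and 230.1 CPM (a log2 fold change of 1.85, SE 0.21, adjusted p = 0.003). Their neighbour Fads3 rose from 17.6 and 20.1 to 184 and 181 CPM and from 45.1% and 42% to 94.6% and 96.7% of nuclei (a log2 fold change of 3.28, SE 0.18, adjusted p = 0.000167). Elovl2 and Elovl5, the elongases of the same path, had log2 fold changes of 1.69 and 1.50 (adjusted p = 0.00295 and 0.0092); the call of Elovl5 was lost on the authors' length-scaled values (adjusted p up to 0.121). Acsl1 and Acsl5, which activate fatty acids, had log2 fold changes of 1.35 and 1.61 (adjusted p = 0.00198 and 0.0028). Pnpla3, a lipase and transferase on lipid droplets, rose from 34.1 and 55.7 to 1029 and 1105 CPM and from 30.4% and 32.6% to 99.1% and 99.7% of nuclei (a log2 fold change of 4.62, SE 0.19, adjusted p = 4.59e-05). Mfsd2a, which carries docosahexaenoic acid as lysophosphatidylcholine, fell from 127 and 104 to 5.3 and 5.1 CPM and from 83.1% and 79% to 14.3% and 10.7% of nuclei (a log2 fold change of −4.47, SE 0.22, adjusted p = 0.000132).

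The called genes of cholesterol synthesis were all higher. Of 23 genes tested, 9 were higher and 0 lower, with a median of 0.94. By preparation this median was 0.61 in tissue and 0.90 in perfusion libraries. Hmgcs1, Fdps, Fdft1 and Pmvk kept their calls in all 17 alternatives, and the other called members lost theirs in 1 or more. Hmgcs1, which makes hydroxymethylglutaryl-CoA, rose from 121 and 92.7 to 524 and 713 CPM and from 73% and 65.8% to 99.5% and 99.7% of nuclei (a log2 fold change of 2.56, SE 0.25, adjusted p = 0.00163). Fdps, farnesyl diphosphate synthase, rose from 26.8 and 21.4 to 154 and 142 CPM (a log2 fold change of 2.63, SE 0.17, adjusted p = 0.000337). Fdft1, squalene synthase, rose from 57.8 and 44.9 to 136 and 154 CPM (adjusted p = 0.00398) and Pmvk, phosphomevalonate kinase, from 24 and 24.7 to 131 and 82.9 CPM (adjusted p = 0.00238). Of 18 genes of steroid, thyroid and retinoid handling, 6 were higher and 2 lower (4 and 0 without the G14.5 tissue library, 4 and 2 without the G14.5 perfusion library), with a median of 0.53. Thrsp, a lipogenic protein named for its response to thyroid hormone, rose from 494 and 1110 to 2980 and 4656 CPM (a log2 fold change of 2.33, SE 0.14, adjusted p = 0.000291); its G0 libraries differed from each other by over 2-fold and both lay below the G14.5 libraries, and DESeq2 did not call it (adjusted p = 0.0831). Cyp7b1, an oxysterol hydroxylase, rose from 142 and 143 to 318 and 279.9 CPM (a log2 fold change of 1.07, SE 0.13, adjusted p = 0.00375). Ttr, transthyretin, a carrier of thyroid hormone, had 1694 and 1172 CPM at G0 against 648 and 726 CPM at G14.5 (a log2 fold change of −1.06, SE 0.19, adjusted p = 0.0166), with adjusted p = 0.118 without the G14.5 tissue library. Of 21 genes of lipoprotein assembly and uptake, 4 were higher and 2 lower (2 and 1 on leaving out either G14.5 library), with a median of 0.07. Apoc2, the activator of lipoprotein lipase, rose from 83.7 and 106 to 304 and 235 CPM (a log2 fold change of 1.50, SE 0.19, adjusted p = 0.0043). Apoc1, also on lipoproteins, fell from 490.1 and 418 to 255 and 211 CPM (a log2 fold change of −0.97, SE 0.12, adjusted p = 0.00399). By preparation, the list's median was −0.17 in tissue and 0.40 in perfusion libraries.

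**Figure D5:**
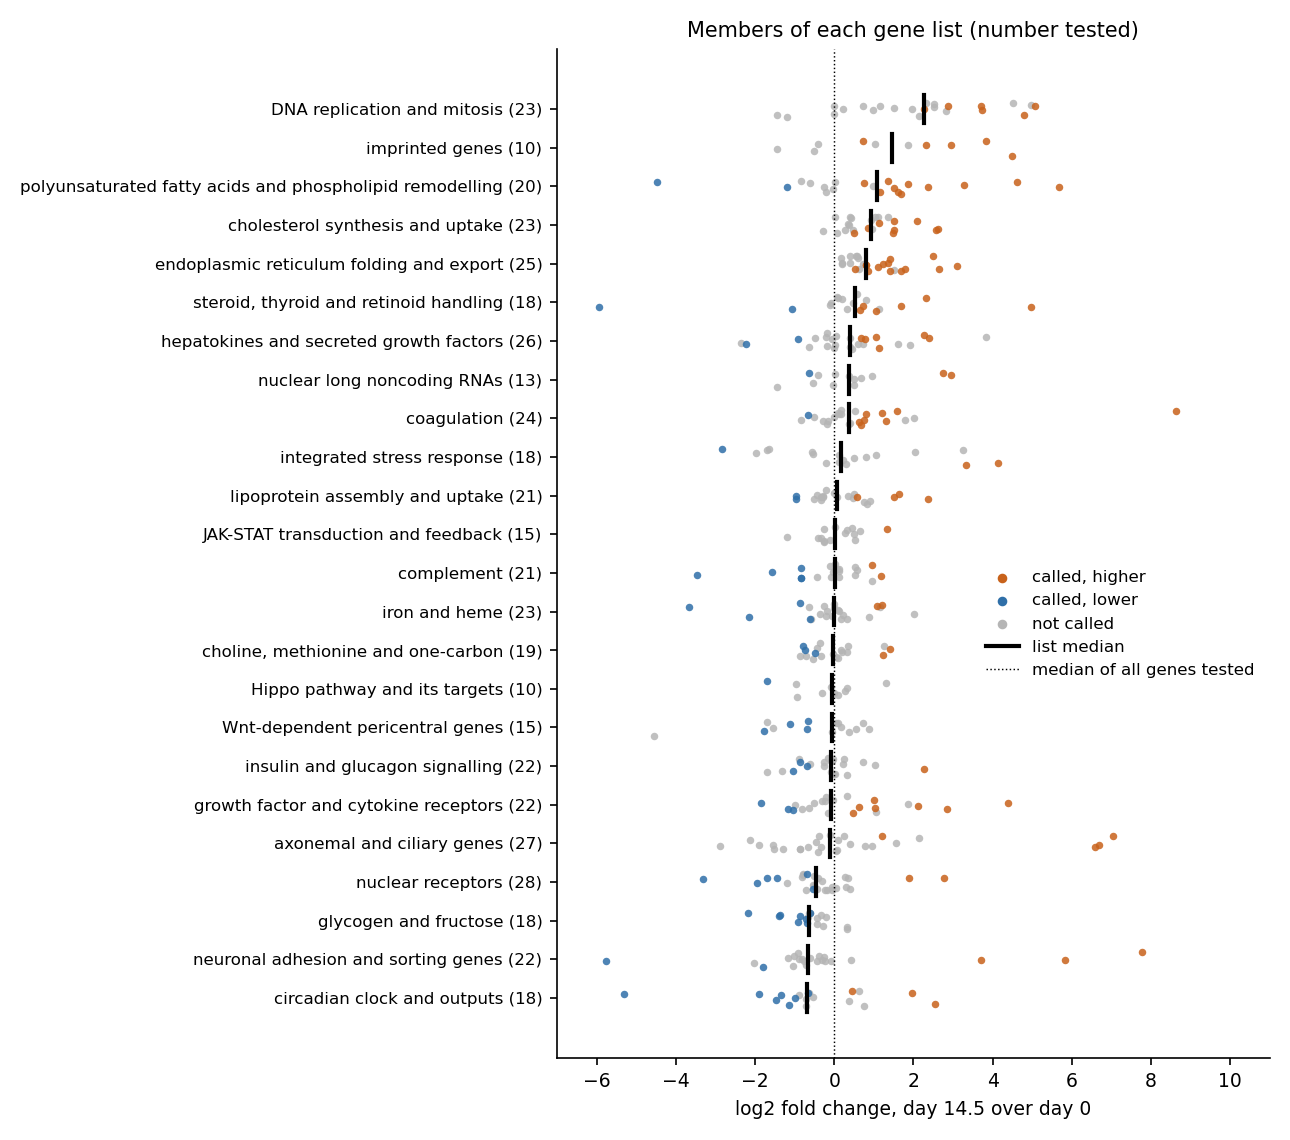
Log2 fold change (x axis) of each tested member of 24 gene lists (y axis, number tested in brackets), orange for called higher, blue for called lower and grey for not called; black bars mark list medians and the dotted line the median of all genes tested. Medians run from 2.28 for DNA replication and mitosis to −0.68 for the circadian clock. In the former, members with few reads at G0 can pass the filters through another stage, which favours a positive median.

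Other genes found in nearly all nuclei also rose. B3galt1, a galactosyltransferase of glycan chains, had 432 and 454 CPM at G0 against 4021 and 4931 CPM at G14.5 (a log2 fold change of 3.33, SE 0.12, adjusted p = 2.65e-05). Cped1, a gene of little-known function, had 643 and 678 CPM at G0 against 3985 and 4100 CPM at G14.5 (a log2 fold change of 2.62, SE 0.11, adjusted p = 4.59e-05). Fndc3b, a membrane protein of the endoplasmic reticulum, rose from 193 and 153 to 678 and 944 CPM (a log2 fold change of 2.22, SE 0.20, adjusted p = 0.00119). Necab1, a calcium-binding protein, rose from 243 and 259 to 1031 and 1133 CPM (adjusted p = 0.000167) and Arhgap26, which turns off small GTPases, from 138 and 148 to 466 and 529.8 CPM (adjusted p = 0.000522). Chka, choline kinase, rose from 218 and 262 to 569 and 708 CPM (a log2 fold change of 1.41, SE 0.12, adjusted p = 0.00095), whereas the list of choline, methionine and one-carbon genes had 2 higher and 3 lower of 19 tested (2 and 0 on leaving out either G14.5 library, or the G0 tissue or either P7L library) and a median of −0.03.

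Lower genes included uptake and export transporters. Slco1b2, which takes up bile acids and drugs from blood, had 2255 and 2269 CPM at G0 against 583 and 657 CPM at G14.5 (a log2 fold change of −1.87, SE 0.13, adjusted p = 0.000379). Slc38a4, a carrier of neutral amino acids, had 739.5 and 749 CPM at G0 against 164 and 220.2 CPM at G14.5 (a log2 fold change of −1.97, SE 0.13, adjusted p = 0.000392). Slc7a2, a carrier of arginine and lysine, had 1505 and 1007 CPM at G0 against 341 and 405 CPM at G14.5 (a log2 fold change of −1.74, SE 0.20, adjusted p = 0.00319). Aass and Dhtkd1, enzymes of lysine breakdown, fell from 551 and 538 to 213 and 222 CPM (a log2 fold change of −1.32, SE 0.12, adjusted p = 0.00118) and from 538 and 509 to 187 and 201 CPM (a log2 fold change of −1.44, SE 0.13, adjusted p = 0.00106). Abcc3, an export pump of the blood-facing membrane, fell from 213 and 237 to 6.65 and 5.79 CPM and from 97.9% and 96.7% to 20.5% and 14.7% of nuclei (a log2 fold change of −5.18, SE 0.18, adjusted p = 2.65e-05). Abcc2, the pump of the bile-facing membrane, had 4857 and 4297 CPM at G0 against 2369 and 3165 CPM at G14.5 (a log2 fold change of −0.74, SE 0.14, adjusted p = 0.0201), with adjusted p = 0.124 without the G14.5 tissue library. Abcc6, whose loss causes calcification of connective tissue, fell from 388 and 364 to 122 and 171 CPM (a log2 fold change of −1.38, SE 0.17, adjusted p = 0.00359). Over the families, 21 of 296 solute carriers tested were higher (7.09%) and 31 lower (10.5%), beside 6.93% and 5.01% of all genes. Of 46 ABC genes, 2 were higher (4.35%) and 7 lower (15.2%). On leaving out either G14.5 library 14 solute carriers were higher and 15 or 14 lower, and without the tissue one 1 ABC gene was higher and 4 were lower.

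Cyp2e1, a drug and ethanol oxidising enzyme of hepatocytes around the central vein, had 1257 and 1464 CPM at G0 against 385 and 407 CPM at G14.5 (a log2 fold change of −1.78, SE 0.12, adjusted p = 0.000355). It kept reads in 98.7% and 100% of nuclei at G0 and in 97.3% and 92.7% at G14.5, and the median nucleus had 311 and 296 reads at G0 and 40 and 12 reads at G14.5. Of 83 Cyp genes tested, 9 were higher and 18 lower (6 and 9 without the G14.5 tissue library, 5 and 11 without the G14.5 perfusion library), with a median of −0.23. Of 15 Wnt-dependent pericentral genes, 4 were lower and 0 higher (2 lower without the G14.5 tissue library, 1 without the G14.5 perfusion library), and the median was −0.05, or 0.21 within liver tissue and −0.74 within perfusion. Glul, glutamine synthetase, a marker of the innermost layer, had 56.1 and 95.6 CPM at G0 against 85 and 70 CPM at G14.5 and was not called. Sult2a3, a sulfotransferase of steroids and bile acids, fell from 81.3 and 55.4 to 0.251 and 0.33 CPM and from 47.7% and 50.3% to 3.57% and 4.67% of nuclei (a log2 fold change of −7.87, SE 0.41, adjusted p = 0.000132); it has near-identical copies, so its own reads are uncertain. Of 14 Sult genes, 2 were higher and 6 lower (1 and 4 without the G14.5 tissue library), with a median of −0.86.

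The called genes of glycogen and fructose were all lower. Of 18 tested, 0 were higher and 8 lower (2 lower without the G14.5 tissue library, 3 without the G14.5 perfusion library; 2 higher and 9 lower without the G0 tissue library), with a median of −0.63. Ugp2, which makes UDP-glucose for glycogen, fell from 1364 and 1117 to 473 and 468 CPM (a log2 fold change of −1.40, SE 0.12, adjusted p = 0.00113). Khk, ketohexokinase, which starts fructose breakdown, had 123 and 117 CPM at G0 against 37.6 and 58.9 CPM at G14.5 (a log2 fold change of −1.37, SE 0.22, adjusted p = 0.0115). Gbe1, the glycogen branching enzyme, had 1711 and 1531 CPM at G0 against 952 and 1057 CPM at G14.5 (a log2 fold change of −0.69, SE 0.12, adjusted p = 0.0143). Both calls were lost, with adjusted p values of 0.0881 and 0.105, without the G14.5 tissue library. Ugp2 was the 1 member of the 8 whose call held when each of the 6 libraries was left out. Of 22 genes of insulin and glucagon signalling, 1 was higher, Igfbp1, and 3 were lower (3 and 2 without the G0 tissue library, 1 and 1 without the G14.5 perfusion library), with a median of −0.08. Lpin1, a phosphatidate phosphatase, fell from 465 and 462 to 196 and 256 CPM (a log2 fold change of −1.05, SE 0.13, adjusted p = 0.00446).

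Hamp, which encodes hepcidin, the hormone that blocks iron release into plasma, had 1874 and 2397 CPM at G0 against 205 and 134 CPM at G14.5 (a log2 fold change of −3.68, SE 0.23, adjusted p = 0.000316). Its share went from 100% and 100% to 64.3% and 58.3% of nuclei and the median nucleus had 421 and 538 reads at G0 and 2 and 1 reads at G14.5. Of the G14.5 nuclei, 81.2% and 84.3% lay below the 10th percentile of G0 nuclei, while the 90th percentile at G14.5 was still 123.9 and 94.1 reads. The neighbouring copy Hamp2 had 409 and 384 CPM at G0 against 327 and 473 CPM at G14.5 and was not called (adjusted p = 0.981). Smad7, an inhibitor of the BMP signal that drives hepcidin, fell from 65.5 and 51.2 to 12.3 and 13.8 CPM and from 63.7% and 69.6% to 29.9% and 22.3% of nuclei (a log2 fold change of −2.15, SE 0.23, adjusted p = 0.00252). Slc39a14, which takes up free iron, rose from 659.7 and 688 to 1276 and 1601 CPM (a log2 fold change of 1.09, SE 0.12, adjusted p = 0.00227). Of 23 iron and heme genes tested, 2 were higher and 4 lower (1 and 2 without the G14.5 tissue library), with a median of −0.01. Over all genes tested 6.93% were higher and 5.01% lower, so the count of higher iron and heme genes is near that share.

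Of 28 nuclear receptors tested, 2 were higher and 6 lower (2 and 1 without the G14.5 tissue library, 2 and 2 without the G14.5 perfusion library), with a median of −0.47. Over all genes tested 6.93% were higher and 5.01% lower, so the count of higher receptors is near that share. Rarb, a retinoic acid receptor, rose from 19.5 and 22.5 to 163 and 123 CPM and from 42.2% and 37.6% to 88.8% and 94% of nuclei (a log2 fold change of 2.77, SE 0.23, adjusted p = 0.00091). Ppard, a fatty acid receptor, rose from 30.7 and 22.2 to 93.8 and 100.4 CPM (a log2 fold change of 1.88, SE 0.22, adjusted p = 0.00347). Nr2f2 fell from 71.8 and 73.4 to 26.1 and 27.5 CPM (adjusted p = 0.00639, or 0.051 without the G14.5 tissue library). Esr1, the estrogen receptor, Hnf4a and Nr1h4, the bile acid receptor, had log2 fold changes of 0.35, 0.03 and −0.30 and were not called.

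Of 18 circadian clock and output genes tested, 3 were higher and 7 lower (1 and 3 without the G14.5 tissue library, 2 and 4 without the G14.5 perfusion library), with a median of −0.68. Arntl, which encodes BMAL1, rose from 27.9 and 40.9 to 136 and 131 CPM and from 51.9% and 49.7% to 91.5% and 93.7% of nuclei (a log2 fold change of 1.96, SE 0.27, adjusted p = 0.00599). Tef and Hlf, output transcription factors, fell from 188 and 196 to 86.1 and 65.9 CPM (a log2 fold change of −1.34, SE 0.18, adjusted p = 0.00497) and from 279 and 237 to 84.4 and 103 CPM (a log2 fold change of −1.47, SE 0.17, adjusted p = 0.00295). Rgs16, a G protein regulator with a daily rhythm in liver, fell from 50.6 and 39.1 to 0.586 and 2.28 CPM and from 56.1% and 41.4% to 2.68% and 8% of nuclei (a log2 fold change of −5.32, SE 0.59, adjusted p = 0.00281). Dbp had 14 and 13.9 CPM at G0 against 3.52 and 3.94 CPM at G14.5 (a log2 fold change of −1.91, SE 0.30, adjusted p = 0.0091), with adjusted p = 0.0697 and 0.054 without the G14.5 tissue or perfusion library. The labels give no time of day of collection, and the part of time of day in these or any other changes was not tested.

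Genes of DNA replication and mitosis had the highest list median, 2.28, and 6 of 23 tested were called higher and 0 lower (2 higher without the G14.5 tissue library, 10 without the G0 tissue library). Mki67, a marker of dividing cells, had 0.781 and 0.111 CPM at G0 against 14.6 and 8.88 CPM at G14.5 and reads in 3.38% and 1.1% of nuclei at G0 and in 26.3% and 17% at G14.5 (a log2 fold change of 5.07, SE 0.72, adjusted p = 0.0069). Top2a, the topoisomerase of dividing cells, had 1.81 and 0.493 CPM at G0 against 20.4 and 7.9 CPM at G14.5 and reads in 8.02% and 6.08% of nuclei at G0 and in 17.4% and 12.7% at G14.5 (a log2 fold change of 3.72, SE 0.44, adjusted p = 0.00348). At G14.5 these shares are of the order of the endothelial medians given above, and at G0 they lie below them. They are not read as counts of dividing nuclei. List members with few reads at G0, such as Mki67, can pass the filters through G14.5 or P7L. This favours a positive list median, so the rank of the list is a description only. Myc, a transcription factor of growth, had 1.23 and 0.906 CPM at G0 against 15.5 and 12.4 CPM at G14.5 (a log2 fold change of 3.71, SE 0.65, adjusted p = 0.0144), with adjusted p = 0.117 without the G14.5 tissue library. Of 25 histone genes, which have near-identical copies, 7 were higher and 0 lower (1 higher on leaving out either G14.5 library, 4 without the G0 perfusion library), with a median of 1.90. Rad51b, a DNA repair gene, went the other way, from 263 and 355 to 46.1 and 13.5 CPM and from 81.9% and 75.7% to 35.7% and 28% of nuclei (a log2 fold change of −3.48, SE 0.55, adjusted p = 0.0098).

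Of 10 imprinted genes tested, 5 were higher and 0 lower (2 higher on leaving out either G14.5 library, 3 without the G0 perfusion or either P7L library), with a median of 1.45. Peg3, a paternally expressed zinc finger gene, rose from 23.8 and 18.2 to 295 and 294 CPM and from 33.3% and 33.1% to 97.3% and 96.7% of nuclei (a log2 fold change of 3.82, SE 0.18, adjusted p = 9.53e-05). Airn, the noncoding RNA that overlaps Igf2r on the other strand, rose from 31.7 and 61.8 to 496 and 243 CPM (a log2 fold change of 2.95, SE 0.43, adjusted p = 0.00766). Strand use is not given, so how reads were counted where Airn and Igf2r overlap is not known. Gnas, Sgce and Impact were called with adjusted p values of 0.03, 0.0296 and 0.0342, and 0.0782, 0.124 and 0.101 without the G14.5 tissue library. Among nuclear long noncoding RNAs, Pvt1, the neighbour of Myc, rose from 22.5 and 20.4 to 132 and 152 CPM (a log2 fold change of 2.74, SE 0.20, adjusted p = 0.000476). Malat1 had 29150 and 28170 CPM at G0 against 16890 and 19950 CPM at G14.5 (a log2 fold change of −0.64, SE 0.10, adjusted p = 0.00999), with adjusted p = 0.0586 without the G14.5 tissue library.

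Genes with large counts that fell without leaving any nucleus included Adk, adenosine kinase, from 11990 and 11700 to 6652 and 7526 CPM (a log2 fold change of −0.74, SE 0.09, adjusted p = 0.00425). Dpyd, which breaks down pyrimidines, fell from 10470 and 8881 to 4999 and 5810 CPM (a log2 fold change of −0.84, SE 0.12, adjusted p = 0.00758). Gphn, gephyrin, fell from 3975 and 4130 to 2390 and 2329 CPM (a log2 fold change of −0.78, SE 0.09, adjusted p = 0.00359). Cps1, the first enzyme of the urea cycle, had 5249 and 4622 CPM at G0 against 2750 and 3418 CPM at G14.5 (a log2 fold change of −0.68, SE 0.13, adjusted p = 0.0181), with adjusted p = 0.118 without the G14.5 tissue library. Mcc, Cep85 and Rbms1, which had reads in nearly all nuclei of each library, also fell, with log2 fold changes of −1.55, −1.43 and −1.35. Ildr2 and Nxph1 fell in share as well, from 86.9% and 77.9% to 22.3% and 23.7% of nuclei (a log2 fold change of −3.96, SE 0.21, adjusted p = 0.000135) and from 65.4% and 64.6% to 13.4% and 8.67% of nuclei (a log2 fold change of −5.75, SE 0.40, adjusted p = 0.000421). Nxpe2 fell from 46.4% and 48.1% to 14.7% and 9% of nuclei (a log2 fold change of −3.72, SE 0.33, adjusted p = 0.00119).

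Called genes were also found side by side. Over annotated coding genes, 24 runs of at least 3 neighbours among the genes tested were called in the same direction. The longest lies on chromosome 12 (103450898 to 103863562, GRCm38) and holds Ifi27l2b, Ppp4r4, Serpina10, Serpina6, Serpina1f, Serpina1b and Serpina1a, all higher; the Serpina1 genes are near-identical copies whose reads are uncertain. A run on chromosome 19 (10041569 to 10207824) holds Fads3, Fads2, Fads1, Fen1 and Tmem258, all higher. Hamp, Usf2 and Lsr on chromosome 7 (30942368 to 30973464) were all lower. How many runs would be expected from 1793 calls was not computed, and runs are given as a description.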

How the data were processed

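The authors deposited read counts per gene and nucleus, mapped to GRCm38 (mm10) with Trimmomatic 0.39, HISAT2 2.1.0 and featureCounts 1.5.3 per the submitters' processing notes, and a second table of length-scaled values of signal per nucleus. No molecular identifiers were counted, so reads are not independent molecules. Strand use and the counted regions are not given in the sources used here. Of 290 genes lying inside coding genes of the other strand, with no exon shared, 91.7% had 0 reads. Of 11035 genes that overlap no other, 16.2% had 0 reads, so overlapping reads look to have been dropped. Trf and H19 did not pass the filters, and whether overlap was the reason was not tested. No columns were left unmapped, and all 1567 nuclei were used without a doublet caller.

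Reads were summed per library. Genes passed filterByExpr and had a read in at least 5% of nuclei of 2 libraries. edgeR 4.0.16 (R 4.3.3; TMM, robust quasi-likelihood F test, two-sided, Benjamini-Hochberg) took in all 6 libraries, with stage and preparation as terms, leaving 2 residual degrees of freedom and a common coefficient of variation of 0.357. CPM are read counts scaled to library size with TMM factors, and SE is the log2 fold change over the square root of F. The fit was also run on simulated counts, and the outcome of that run is not given here. Preparation is the replicate number and the block, because both preparations occur at each stage. Lists are described by counts and medians, with no set test. Named genes are those gained or lost, up to 12 per direction with the largest change among genes in at least 90% of nuclei, up to 8 with the largest CPM difference, up to 10 with the largest change at 20 CPM or more, and list members; 1 or more genes that this rule takes are not reported here. The members, lists and tests were chosen with earlier results of these data known. Gene positions are from GENCODE M21. Alternatives covered scaling, filters, other tests (limma 3.58.1, DESeq2 1.42.0), the authors' values, thinning and leaving out each library.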

Additional observations from a re-analysis of the deposited data

Results flagged for a closer look

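The median difference between G14.5 and G0 over the 15 Wnt-dependent pericentral genes tested had opposite signs in the preparations, 0.21 on the log2 scale in liver tissue and −0.74 in perfusion. The 4 called members were lower in both preparations. The difference between the preparations was not tested.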

How the results depend on the processing

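Each stage has 2 libraries of unnamed animals, so the calls rest on few degrees of freedom. The counts of genes called, higher and lower were within 1.5 times the values reported with RLE size factors, library size alone, other filters, limma-voom, thinned nuclei, the authors' values with a pseudocount of 0.1 and no replicate block (2095 called, with 1186 higher and 909 lower). They moved further with DESeq2 (3410 called, 1873 higher, 1537 lower) and with the authors' values and a pseudocount of 1 (1128 called, 557 higher), and with the 4 libraries of G0 and G14.5 alone, with the replicate block, 476 genes were lower. Leaving out each library gave 662 to 1885 calls, 432 to 1125 higher and 230 to 817 lower. With library size alone the median log2 fold change of all genes was −0.13 beside −0.01 with TMM. Genes gained numbered 14 with at least 3 reads required and 33 with a limit of 20%, and 9 to 14 on leaving out a library. Genes lost numbered 1 with at least 3 reads or with thinning to 100000 reads, 5 with a limit of 20%, and 0 to 1 on leaving out a library. Of 190 named genes that were called, 92 kept their call in all alternatives that gave them a value; 104 kept it without the G14.5 tissue library and 124 without the G14.5 perfusion library. The cause of these differences was not tested. No interval here covers the spread between animals.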
